A study of Homo sapiens with 8 samples.

Results

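The genes examined here encode secreted neuropeptides and 2 granins, the acidic proteins packed with peptides into secretory granules. Their 10 names were TRH, CALCA, CALCB, NPY, PENK, SST, VIP, GAL, CHGA, and SCG2, and a probe belonged to them when the transcript it was designed on mapped to one of these symbols. 8 of the 10 genes were found in this way, with 10 probes, among 34127 non-control probes and 19483 named genes, and CALCB and PENK were not analysed here. The genes were chosen with their signals in view, so their values are described without a test.

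The arrays were hybridized with RNA of 8 stable lines of HEK293T, a human embryonic kidney cell line transformed with adenovirus DNA and SV40 large T antigen. The lines were made with 4 pcDNA6-based plasmids, and each plasmid was represented by 2 clones, each grown from its own stable transformant. The empty vector clones were #1 and #2. The TET1-CDwt clones, #2 and #5, carried the FLAG-tagged catalytic domain of TET1, an enzyme that oxidizes 5-methylcytosine. The MBD-TET1-CDwt clones, #3 and #10, carried this domain joined to the methyl-CpG-binding domain of MBD2, and the MBD-TET1-CDmut clones, #9 and #10, carried the same fusion with an inactive catalytic domain. All clones thus shared the plasmid backbone and its selection, and equal numbers of different constructs do not denote related clones. Empty vector and TET1-CDwt lay on slide 1 and both fusions on slide 2, so slide and construct cannot be told apart when a fusion is compared with empty vector, whereas both fusions can be compared within slide 2.

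A peptide hormone is cut from a larger precursor by proprotein convertases such as PCSK1 and PCSK2, trimmed by carboxypeptidase E, often amidated by PAM, and stored in granules with chromogranins and secretogranins until it is released onto a G protein-coupled receptor. Transcription of many precursor genes is driven by CREB through a cAMP response element near the start of the gene and is held down in non-neuronal cells by the repressor REST. TRH encodes the precursor of thyrotropin-releasing hormone, the hypothalamic tripeptide that releases thyrotropin from the pituitary. CALCA gives calcitonin in thyroid C cells and, by alternative splicing, calcitonin gene-related peptide (CGRP) in neurons.

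The 250 bases before the gene start are shown for 4 genes because the methyl-CpG-binding domain of the fusion recognizes CpG sites that are methylated. The number of CpG sites, methylated or not, differs widely among these promoters. Capitals mark CpG dinucleotides, and every sequence is read 5′ to 3′ on the strand of its gene from RefSeq on GRCh38.p14. TRH lies on the plus strand (chr3:129974470-129974719), CALCA on the minus strand (chr11:14972352-14972601), NPY on the plus strand (chr7:24283940-24284189), and VIP on the plus strand (chr6:152750547-152750796).
TRH: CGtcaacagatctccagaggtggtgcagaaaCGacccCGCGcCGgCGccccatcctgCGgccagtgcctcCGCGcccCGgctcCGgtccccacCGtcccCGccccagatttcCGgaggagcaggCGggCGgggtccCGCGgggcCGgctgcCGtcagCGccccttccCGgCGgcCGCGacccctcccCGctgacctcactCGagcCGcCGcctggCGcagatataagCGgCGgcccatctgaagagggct
CALCA: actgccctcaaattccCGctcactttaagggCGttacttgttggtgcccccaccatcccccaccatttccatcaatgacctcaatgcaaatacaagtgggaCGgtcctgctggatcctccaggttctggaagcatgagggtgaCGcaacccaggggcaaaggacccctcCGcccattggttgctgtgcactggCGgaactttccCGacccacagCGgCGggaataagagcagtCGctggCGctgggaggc
NPY: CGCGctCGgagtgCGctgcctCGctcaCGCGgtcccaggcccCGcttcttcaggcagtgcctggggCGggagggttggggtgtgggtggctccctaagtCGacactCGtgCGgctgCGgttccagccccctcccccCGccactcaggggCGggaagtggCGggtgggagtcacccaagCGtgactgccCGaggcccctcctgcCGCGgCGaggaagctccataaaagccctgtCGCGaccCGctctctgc
VIP: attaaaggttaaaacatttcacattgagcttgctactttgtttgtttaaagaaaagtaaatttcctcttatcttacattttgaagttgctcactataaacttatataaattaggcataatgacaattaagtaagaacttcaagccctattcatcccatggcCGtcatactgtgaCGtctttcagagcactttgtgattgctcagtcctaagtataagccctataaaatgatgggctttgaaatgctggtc

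The TRH window held 32 CpG sites, more than 90.5% of 35116 RefSeq promoters of this length, with 0.93 of the CpG number that its base composition would give. The NPY window held 24 CpG sites and the CHGA window 21. CALCA had 11, which was also the median of all promoters, SST had 7, and VIP had only 2. No window was available for GAL and SCG2, which were not analysed in this respect. DNA methylation itself was not measured on these arrays.

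The cAMP response element, searched on both strands as TGACGTCA, was present in the windows of SST and CHGA and in 1.65% of all promoters. It is shown in capitals within 60 bases because it sets these 2 windows apart from the other 4. The SST stretch (minus strand, chr3:187670408-187670467) has the element beginning at -47 from the gene start, and the CHGA stretch (plus strand, chr14:92923070-92923129) has it beginning at -54.
SST: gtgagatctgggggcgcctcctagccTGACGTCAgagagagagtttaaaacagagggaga
CHGA: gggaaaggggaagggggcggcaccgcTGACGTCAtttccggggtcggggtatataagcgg

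The shorter TGACG, which lies within the full element, was found in 21.2% of all promoters and in the windows of TRH, CALCA, SST, VIP, and CHGA. The letters TATAAA were found in 10.72% of promoters and in those of SST and VIP. These matches are descriptions of the sequence only.

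Each signal below is the log2 of the deposited intensity minus the 75th percentile of the array, so that 0 is a bright spot for these arrays and negative values are dimmer. A probe was well above background when the scanner software marked more than 50% of its spots so. The dimmest such signals lay between -6.01 and -5.51 on the 8 arrays, and 63.2% to 68.2% of probes were well above background. Levels of different probes are not comparable, and each probe is followed across arrays only. In RNA from whole cultures, fewer expressing cells and less RNA per cell cannot be told apart.

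By its array probe, TRH was detected in 1 of the 8 lines, MBD-TET1-CDwt #10. Its signal there was -5.02, and in the sister clone #3 it was -7.84 and not well above background. The study reports TRH reactivation by RT-PCR in both clones of this construct, and describes the TRH array intensity as higher in both. A dim array signal is therefore not read as absence of TRH RNA in #3. The empty vector clones gave -6.48 and -8.32, the TET1-CDwt clones -8.26 and -6.82, and the MBD-TET1-CDmut clones -7.84 and -7.83, none of them well above background. The MBD-TET1-CDwt clones therefore overlapped every other construct, and a difference between construct means had no call. Because TRH was close to the detection limit even in #10, only a bound can be given, and the signal in #10 was at least 1.42-fold that of the highest of the 6 arrays of other constructs.

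CALCA was measured by 3 probes, of which 2 were designed on a transcript for calcitonin (NM_001033952; probe a, A_23_P301846, and probe b, A_33_P3318771) and 1 on the transcript for CGRP (NM_001033953; probe c, A_24_P198178). All of them were highest in MBD-TET1-CDwt #10. Probe a reached -1.23 in #10 and -5.05 in #3, against -6.40 and -5.76 in empty vector, -7.54 and -7.09 in TET1-CDwt, and -6.13 and -5.17 in MBD-TET1-CDmut. Both MBD-TET1-CDwt clones were above all 6 others, but #3 was only 1.09-fold above the highest of them, MBD-TET1-CDmut #10, whereas #10 was 15.4-fold above it. The probe was well above background on 4 arrays, namely empty vector #2, both MBD-TET1-CDwt clones, and MBD-TET1-CDmut #10.

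Probe b was detected above background only in clone #10 of MBD-TET1-CDwt. Its signal was -2.42 there and -5.99 in #3, against -7.12 and -7.87 in empty vector, -7.50 and -7.18 in TET1-CDwt, and -7.66 and -7.57 in MBD-TET1-CDmut. The #10 signal was at least 8.64-fold that of any array of the other constructs. Thus both calcitonin probes gave the same picture of one bright clone.

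Probe c, designed on the CGRP transcript, was well above background on all 8 arrays, those of empty vector included. Whether it also detects other transcripts was not examined. It gave 0.79 and -0.28 in empty vector, 1.55 and 0.43 in TET1-CDwt, 0.49 and 1.10 for MBD-TET1-CDmut, 3.13 in MBD-TET1-CDwt #10, and -1.57 in its sister clone #3. The 2 MBD-TET1-CDwt clones were thus the highest and the lowest of the 8 lines, 26.1-fold apart. By this probe #10 was 3.01-fold above the highest array of the other constructs.

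NPY encodes neuropeptide Y, an abundant peptide of sympathetic and brain neurons. Its probe was well above background on all arrays. The highest signal was -0.67 in MBD-TET1-CDwt #3, followed by -0.90 in MBD-TET1-CDmut #10 and -1.74 in MBD-TET1-CDmut #9. Empty vector gave -2.59 and -2.50, MBD-TET1-CDwt #10 gave -3.14, and TET1-CDwt gave -4.41 and -3.18, the lowest pair. Here the order of the MBD-TET1-CDwt clones was opposite to that of TRH and CALCA, with #3 being 5.56-fold above #10. TET1-CDwt and MBD-TET1-CDmut did not overlap empty vector, and MBD-TET1-CDwt did.

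GAL, the gene of galanin, a peptide of the gut and of hypothalamic neurons, was well above background on all arrays and varied least among the 4 probes of these genes with that property. Its signals were 3.56 and 3.57 in empty vector, 3.71 and 3.73 in TET1-CDwt, 3.47 and 3.83 for MBD-TET1-CDmut, 4.33 in MBD-TET1-CDwt #3, and 3.09 in its sister clone #10. As for the CGRP probe of CALCA, the highest and the lowest line were the 2 MBD-TET1-CDwt clones, but in the opposite order and 2.36-fold apart.

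CHGA encodes chromogranin A, a granin used as a marker of neuroendocrine cells, and it was lower with the active fusion than with the inactive one. It was well above background on all arrays, with signals of -0.90 and -1.29 in empty vector, -0.08 and -1.53 in TET1-CDwt, and -0.37 and -0.55 in MBD-TET1-CDmut. MBD-TET1-CDwt gave -3.08 in #3 and -1.53 in #10. Both clones were below both clones of empty vector and of MBD-TET1-CDmut, and #10 equaled TET1-CDwt #5 to 2 decimals.

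SST (somatostatin), VIP (vasoactive intestinal peptide), and SCG2 (secretogranin II, the precursor of secretoneurin) were not well above background on any array. Their signals ranged from -7.94 to -6.39 for SST, from -8.06 to -7.51 for VIP, and from -8.18 to -6.29 for SCG2. No order is given for values below the detection limit. The 2 genes whose windows held a full cAMP response element thus differed in detection, SST on none of the arrays and CHGA on all 8.

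**Figure D1:**
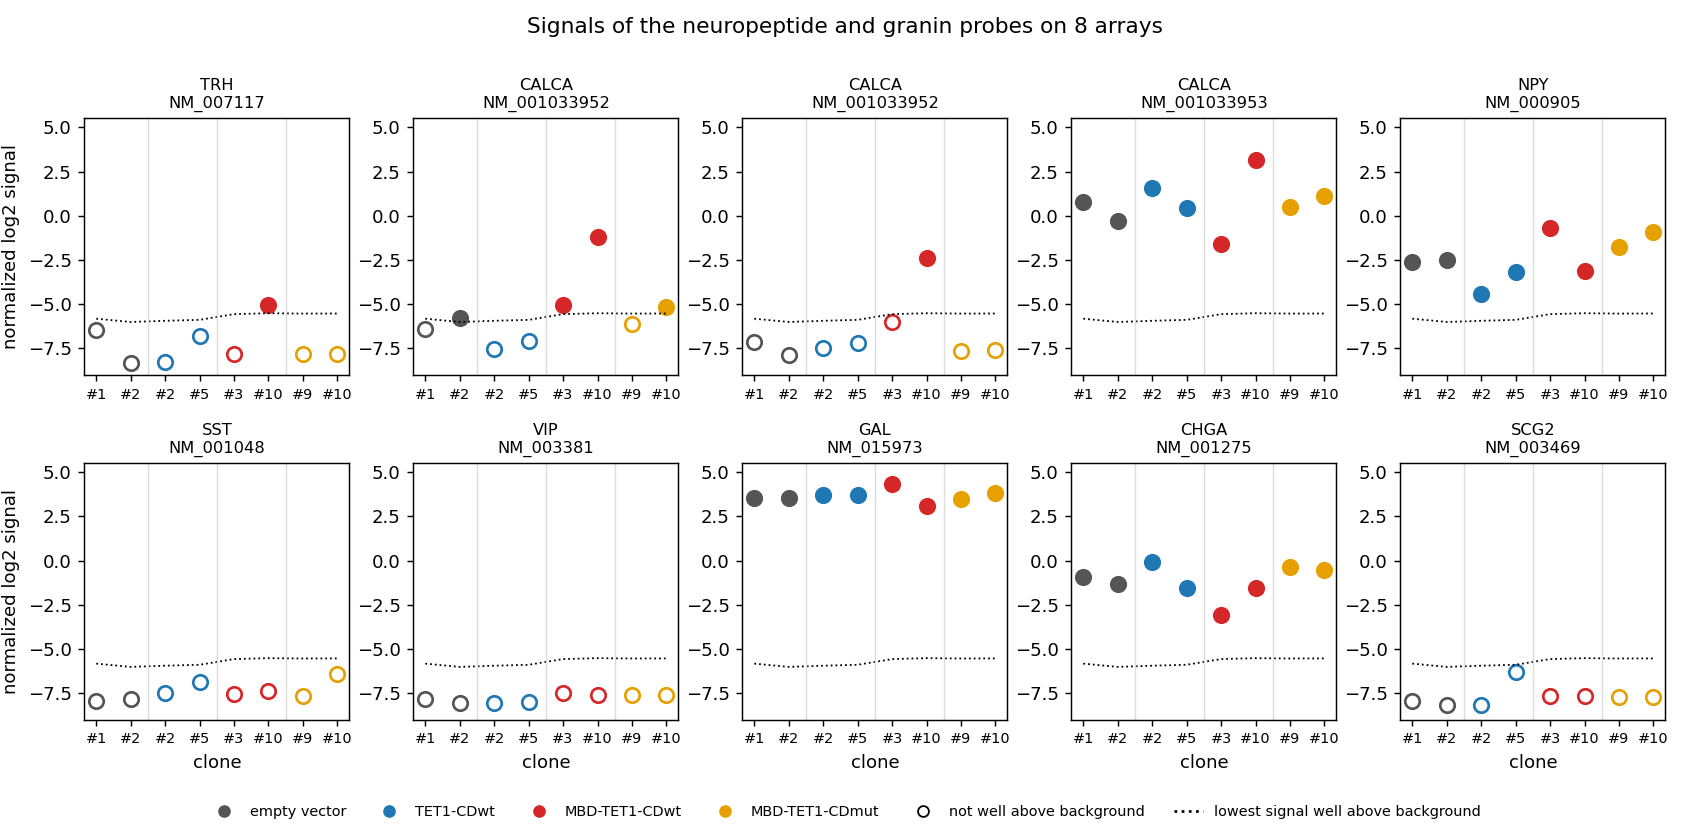
Each panel shows 1 probe with its gene and transcript, the 8 clones on the horizontal axis colored by construct, and the normalized log2 signal on the vertical axis. Filled points were well above background, open points were not, and the dotted line is the lowest signal well above background on each array. MBD-TET1-CDwt #10 stands at -5.02 for TRH and at -1.23, -2.42, and 3.13 for the CALCA probes, and SST, VIP, and SCG2 have only open points.

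In the comparison with empty vector, which asks what the targeted catalytic domain changes, 1 gene was higher by 2-fold or more in MBD-TET1-CDwt and 1 was lower by that much. To be counted, a gene needed a probe detected on the 2 arrays of whichever group was higher, and dim signals of the lower group were raised to the lowest signal well above background. Of 14264 genes measured in this way, 1.69% were higher and 1.15% lower, and nothing is read from these counts because the genes were chosen on the same values. CALCA was at least 6.28-fold higher by probe a, for which 1 of the 2 empty vector arrays was dim (signals as measured, -3.14 ± 2.71 against -6.08 ± 0.45, mean ± SD, n = 2 each). This also exceeded 5-fold, the study's threshold, which 0.414% of genes did. Without #10 the log2 difference of the signals as measured fell from 2.94 to 1.03 and without #3 it was 4.85, so its size was that of 1 clone. By probe c the difference was 0.52, less than the SD between the clones of MBD-TET1-CDwt (3.33). CHGA was 2.31-fold lower (-2.31 ± 1.10 against -1.10 ± 0.28, n = 2 each), and its log2 difference was -0.43 without #3 and -1.99 without #10. The groups did not overlap for probe a of CALCA or for CHGA, and 31% of the probes measured did not overlap in this comparison.

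Within slide 2, MBD-TET1-CDwt was compared with its inactive counterpart, which bears on the enzymatic activity. CALCA was at least 4.63-fold higher by probe a, with 1 of the 2 MBD-TET1-CDmut arrays dim, and CHGA was 3.61-fold lower (-2.31 ± 1.10 against -0.46 ± 0.13, n = 2 each). Of 14047 genes, 1.76% were at least 2-fold higher and 1.44% at least 2-fold lower. The log2 difference of CALCA as measured was 2.51 and became 0.60 without MBD-TET1-CDwt #10 and 4.43 without #3. That of CHGA was -1.85 and became -1.08 without #3 and -2.63 without #10. CALCA by probe a and CHGA did not overlap between the fusions, as was the case for 36.4% of the probes measured, and NPY, GAL, and probe c of CALCA overlapped.

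NPY was the gene that differed by at least 2-fold in the other constructs. In TET1-CDwt it was 2.38-fold lower than in empty vector (-3.80 ± 0.87 against -2.54 ± 0.06, n = 2 each), where 0.398% of genes were lower to this extent and 0.405% were higher. In MBD-TET1-CDmut it was 2.33-fold higher (-1.32 ± 0.60, n = 2), where 0.492% of genes were higher and 0.38% were lower. Without regard to size, the clones did not overlap with empty vector for 27.8% of the probes measured in TET1-CDwt and for 35% in MBD-TET1-CDmut. Both comparisons share the empty vector arrays, whose 2 values lay 0.09 apart. The log2 difference of TET1-CDwt was -0.64 without #2 and -1.87 without #5, and that of MBD-TET1-CDmut was 1.65 without #9 and 0.80 without #10. A different background correction (normexp with an offset of 50) left neither of these differences at 2-fold, with log2 values of -0.68 and 0.80. By the same correction CHGA against empty vector was -0.62 and CALCA against MBD-TET1-CDmut was 0.94 by probe a, whereas CALCA against empty vector (1.05 by probe a) and CHGA against MBD-TET1-CDmut (-1.16) stayed past 2-fold. The other probes of CALCA then gave 0.73 (b) and 0.62 (c) against empty vector.

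In MBD-TET1-CDwt the sister clones lay far apart for each of the detected genes. All 5 probes well above background in both of its clones were at least 2-fold apart, with folds of 14.2 (CALCA, probe a), 26.1 (CALCA, probe c), 5.56 (NPY), 2.93 (CHGA), and 2.36 (GAL). CALCA and CHGA were higher in #10, and NPY and GAL were higher in #3. Of 20918 probes well above background on both arrays, 9.76% were that far apart, the highest share of the 4 constructs. In empty vector 1 of 4 such probes was 2-fold apart (CALCA, probe c, 2.10-fold) where 4.46% of probes were, and in TET1-CDwt 3 of 4 (CALCA, probe c, 2.17-fold; NPY, 2.35-fold; CHGA, 2.73-fold) where 4.67% were. In MBD-TET1-CDmut none of 4 was, with 1.80-fold for NPY as the widest, where 0.903% were. These probes belong to the chosen genes, and the shares are given as background only.

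**Figure D2:**
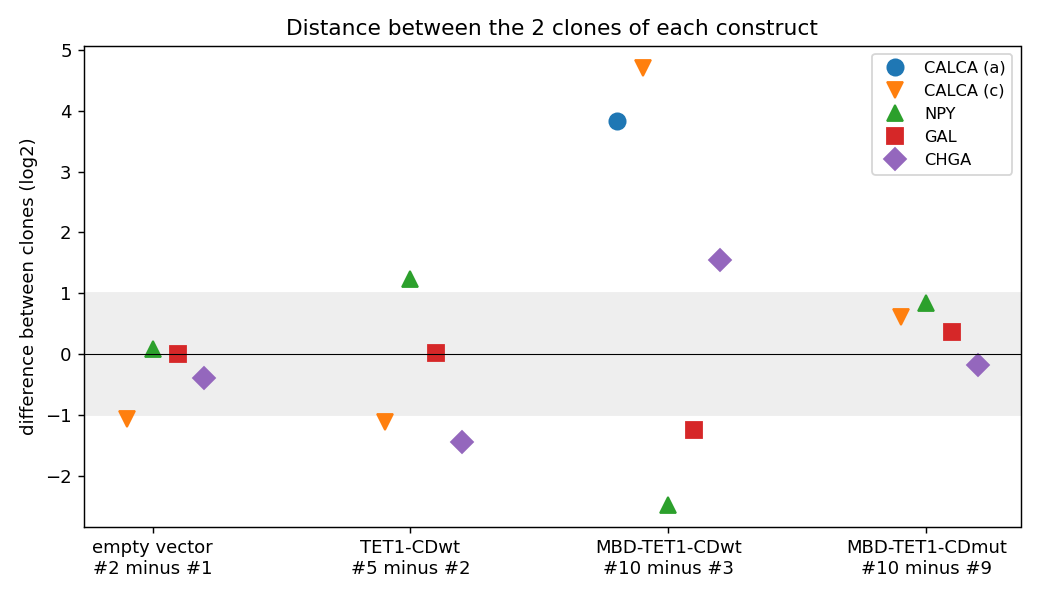
The log2 difference between the 2 clones (vertical axis) is shown for each construct (horizontal axis) and each probe well above background in both clones, with a gray band for less than 2-fold. In MBD-TET1-CDwt all 5 probes lie outside the band, from -2.48 for NPY to 4.71 for probe c of CALCA, and in MBD-TET1-CDmut none does.

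Cell type markers were followed beside these signals. The kidney epithelial list (VIM, KRT8, KRT18, and others) was well above background for 8 of 8 genes in every line, with a summed level of 135 to 226 times the 75th percentile. In the list of 8 neuroendocrine markers, 3 to 4 were well above background on each array, SYP, INSM1, and SNAP25 on all 8. NEUROD1 was not well above background on any array, and the summed level ran from 0.418 in MBD-TET1-CDwt #3 to 1.07 in MBD-TET1-CDwt #10. Of the blood cell markers, CD3E was not well above background on any array, and CD14 was -3.83 in MBD-TET1-CDwt #10, within its range over the other lines (lowest -4.01 in TET1-CDwt #2). Of 4 fibroblast markers, COL3A1 and DCN were not well above background on any array, COL1A1 was on all 8, and LUM was in MBD-TET1-CDwt #3 alone, with sums of 0.240 to 0.394. The summed neuroendocrine list was highest in #10, the clone with the highest TRH and CALCA, but its genes did not move together. INSM1 (-0.49) and STMN2 (-4.41) were highest in this clone. SYP (-2.51) and SNAP25 (-3.20) lay there within their range over the other lines. The part of this list in the TRH and CALCA signals was not tested. TET1 and MBD2, parts of which the constructs encode, ranged from 2.61 to 2.94 and from 1.25 to 1.65 over the 8 lines by 1 probe of each, and from -1.55 to -0.70 and from -5.21 to -2.57 by the other. Where these probes lie relative to the cloned parts was not examined. B2M lay between 2.95 and 3.13, and the 2 probes of ACTB lay between 2.80 and 3.45 and between 6.99 and 7.97.

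Genes with the most similar pattern over the 8 arrays are given as a description, since the arrays share their clones and slides and a single bright clone sets most of each correlation. For TRH they were PTPRC (Pearson's r = 0.94), ERN2 (0.94), and KRTAP9-1 (0.93). PTPRC, the leukocyte antigen CD45, did so by 1 probe of 4, with -3.91 in #10 and -5.48 to -4.51 elsewhere, and 2 of its other probes were not well above background on any array. For probe a of CALCA they were CAVIN3 (0.96), MIRLET7BHG (0.96), and PPP1R14A (0.96), and for probe b they were ACTL10 (0.99), MAGEA12 (0.98), and LINC02610 (0.98). MAGEA12, a cancer-testis antigen, ran from -5.53 to -5.00 outside MBD-TET1-CDwt, with -3.86 in #3 and -0.71 in #10. For probe c they were COLEC11 (0.99), MOB3A (0.99), and TMBIM1 (0.99).

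The rest of the peptide pathway was described by 6 lists of 135 genes, of which 133 had a probe and 109 of their 165 probes were tested. limma called none of these probes at an adjusted p under 0.05 in any of the 4 comparisons, where it called 0.102% of 22530 probes as higher and 0.0133% as lower in MBD-TET1-CDwt against empty vector, 0.0888% and 0.0133% against MBD-TET1-CDmut, and 0% in the other comparisons. At an unadjusted p under 0.05, the lists had 4 probes higher and 8 lower in MBD-TET1-CDwt against empty vector, where 2.84% and 3.76% of all probes tested were so. Against MBD-TET1-CDmut they had 7 and 9 (3.28% and 3.56% of all), with TET1-CDwt 1 and 5 (0.652% and 1.85%), and for MBD-TET1-CDmut 1 and 3 (0.861% and 1.82%). The median log2 difference of the lists was -0.02 in MBD-TET1-CDwt against empty vector, and that of all probes tested was also -0.02. By the 2-fold count, 4 list genes were higher and 1 was lower in this comparison among 88 measured, beside 1.69% and 1.15% of all genes. They were 0 and 1 of 89 with TET1-CDwt (0.405% and 0.398% of all genes) and 1 and 1 of 86 for MBD-TET1-CDmut (0.492% and 0.38%). Against MBD-TET1-CDmut they were 3 and 3 of 85 (1.76% and 1.44%). A fold given below as at least a value had 1 or both arrays of its lower group dim and raised to the floor.

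Of 43 other peptide precursors with a probe, 19 were well above background on all 8 arrays and 12 on none, among the latter CCK, CRH, CARTPT, PDYN, and PMCH, which are hypothalamic or gut peptides. NPW, the precursor of neuropeptide W, differed most by size. It was -4.15 in MBD-TET1-CDwt #3 and -2.40 in #10, against -7.80 and -7.46 in empty vector, -7.28 and -6.97 in TET1-CDwt, and -5.18 and -7.60 in MBD-TET1-CDmut. Both MBD-TET1-CDwt clones were above the 6 others, and NPW, unlike TRH, was well above background in both. Of the other lines, MBD-TET1-CDmut #9 was also well above background for NPW. It was at least 6.23-fold higher than empty vector and at least 4.22-fold higher than MBD-TET1-CDmut by size, with adjusted p-values of 0.313 and 0.542 by limma. The study selected NPW from these same arrays, so its direction is not independent evidence.

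Among the other precursors, EDN1, which encodes the vasoconstrictor endothelin-1, was at least 2.21-fold above empty vector in MBD-TET1-CDwt by 1 of its 2 probes (-5.15 and -4.01 against -5.77 and -5.66; limma adjusted p = 0.806). By the same probe TET1-CDwt gave -5.95 in #2 and -4.51 in #5, the latter above MBD-TET1-CDwt #3. The other EDN1 probe gave -5.30 and -5.15 in MBD-TET1-CDwt against -5.03 and -5.35 in empty vector. UCN2, a urocortin of the CRH family, was at least 2.05-fold lower in MBD-TET1-CDwt (limma adjusted p = 0.861) and 2.33-fold lower in TET1-CDwt (limma adjusted p = 1.00), with -4.42 and -2.79 in the empty vector clones themselves. TAC3, which encodes neurokinin B, was 2.33-fold higher and TAC1, the substance P precursor, at least 2.40-fold lower in the active than in the inactive fusion, and TAC3 was 2.01-fold lower with the inactive fusion than with empty vector. Both tachykinin genes were named after their values were seen.

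Of 16 granins and granule proteins, 8 were well above background on all arrays. SCG5, the chaperone 7B2 of the convertase PCSK2, was at least 2.19-fold above empty vector in MBD-TET1-CDwt (-4.94 and -4.26 against -5.46 and -6.20; limma adjusted p = 0.755). VGF, a granin family precursor, was lower by more than 2-fold with the active than with the inactive fusion (log2 difference -1.58; -2.30 and -1.66 against -0.11 and -0.68; limma adjusted p = 0.362), the same order as CHGA in these lines. CHGB, the closest relative of CHGA in this list, was well above background on 1 array only. Of 17 processing enzymes, 14 were well above background on all 8 arrays, with CPE between 1.56 and 2.57 and 1 probe of PAM between 2.26 and 2.75. The neuroendocrine convertases PCSK1 and PCSK2 were not well above background on any. PCSK6 was 2.19-fold higher in MBD-TET1-CDmut than in empty vector and 2.40-fold lower with the active than with the inactive fusion, by 1 of its 2 probes, and VGF and PCSK6 were named after their values were seen.

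Receptors of the same peptides were sparsely detected, with 11 of 28 well above background on all arrays and 11 on none. TRHR, the receptor of TRH, was well above background on 1 array, and TRHDE, the ectoenzyme that degrades TRH, on none. The CGRP receptor consists of CALCRL and its partner RAMP1. CALCRL was well above background by 1 of 3 probes, and by this one in both empty vector clones and TET1-CDwt #5. RAMP1 was measured on all arrays by both probes, and 1 of them gave 4.10 in MBD-TET1-CDwt #10, 2.42 in #3, and 2.65 to 3.26 in the other lines, while the other gave 2.10, 0.30, and 0.66 to 1.25. RAMP1 thus shared with probe c of CALCA its highest and its lowest line. RAMP1 and CALCRL were named after their values were seen, and limma gave RAMP1 an adjusted p of 0.940 for MBD-TET1-CDwt against empty vector by the first of these probes. NPY1R and NPY2R were not well above background on any array.

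Among 11 peptide degrading enzymes with a probe, 9 were well above background on all arrays. By the 2-fold count, with dim signals raised to the floor, no gene was different in any comparison. Of 18 regulators of precursor transcription, 14 were well above background on all arrays. REST lay between -2.13 and -1.88 and CREB1 between -0.36 and 0.03, both within narrow ranges over the 8 lines. HDAC2, a histone deacetylase in REST complexes, was higher in MBD-TET1-CDwt by 1 of its 2 probes. It was at least 2.47-fold above empty vector (-3.81 and -4.33 against -5.78 and -4.97, limma adjusted p = 0.755). Against MBD-TET1-CDmut it was at least 2.19-fold higher. By this probe TET1-CDwt gave -5.25 in #2 and -3.67 in #5, the latter above both MBD-TET1-CDwt clones. The other HDAC2 probe gave 4.21 and 3.69 in MBD-TET1-CDwt against 3.92 and 3.71 in empty vector.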

How the data were processed

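Cy3-labeled cRNA of 8 stable HEK293T lines (4 constructs, 2 clones each) was hybridized to 8 single-color Agilent arrays with 2 slides. The deposited values are spot intensities after background subtraction by the authors, without scaling between arrays. Their file headers name Agilent Feature Extraction 10.7.3.1 and the submitters' processing notes 9.5.1. The deposited whole-series table repeated these intensities (44495 of 44495 rows equal on each array). No normalization or build for naming is given in the sources used here apart from an array design annotated on hg19.

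Control spots and 213 to 269 outlier spots per array were left out, and log2 intensities were averaged over the spots of a probe. The 75th percentile of these probe averages on each array, an intensity of 328 to 527, was then subtracted. No spot was saturated, and the 2 arrays of a construct limit the precision. Probes were named through RefSeq (GRCh38.p14, 25422 of 34127 probes, 74.5%). The 4 group means were fitted over all 8 arrays by limma 3.58.1 (R 4.3.3, 4 residual degrees of freedom) for 22530 probes that were well above background on each array of 1 construct or more, with Benjamini-Hochberg adjustment. No slide term could be fitted because no construct spans both slides. The fit and the counting rule were tested on simulated data.

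The genes, the lists, and the rule for the names were chosen with earlier results of these data known. The rule named the 8 genes, list genes called by limma or at least 2-fold different between MBD-TET1-CDwt and empty vector (at most 6 per list), NPW, TET1, MBD2, ACTB, and B2M, and the 3 genes most similar to each TRH or CALCA probe. Alternatives were normexp on the median signal (background of flagged spots set to the array median, since specks stopped the fit otherwise), median and quantile scaling, other filters, priors, and samples in limma, unfloored dim signals, agreement of all clones, and leaving out each clone. Clones were separate stable lines, so p-values measure the spread between clones. RT-PCR, bisulfite sequencing, and protein sequences were not analysed here. Some marker genes are not reported here. Figures were drawn with matplotlib 3.10.9 in Python 3.11.15.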

Additional observations from a re-analysis of the deposited data

How the results depend on the processing

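The limits are 2 clones per construct and dim signals, since 6 of the 10 probes were not well above background on at least 4 of the 8 arrays. No paired analysis was possible because the constructs share fewer than 2 clone numbers, and these do not link clones. The count of list probes called by limma was 0 in 28 of 28 alternatives other than leaving out a clone (including fits of the 2 constructs compared alone) and in 30 of 32 that left out 1 clone, where it ranged from 0 to 1 for MBD-TET1-CDwt against empty vector and from 0 to 2 against MBD-TET1-CDmut. Without MBD-TET1-CDwt #10, the single clone #3 was assumed to vary like the other groups. Then 1 of the 2 SSTR2 probes was called as higher, with log2 differences of 1.64 from empty vector and 1.66 from MBD-TET1-CDmut. By the other SSTR2 probe #3 gave -2.06, against -1.80 and -1.99 in empty vector and -2.21 and -1.92 in MBD-TET1-CDmut. PGPEP1 was called as lower than MBD-TET1-CDmut by 1 probe (-1.37), and its other probe was dim on all 8 arrays. The 2-fold count of list genes against empty vector was 5 with MBD-TET1-CDwt, 1 with TET1-CDwt, and 2 with MBD-TET1-CDmut, and it was 6 between the active and the inactive fusion. With normexp it was 0, 0, 0, and 1, and with every clone 2-fold above every other clone it was 1, 0, 0, and 1. With median scaling and with quantile normalization it was 2 for TET1-CDwt (1 higher, 1 lower) and 1 for MBD-TET1-CDmut (1 higher, 0 lower), and with dim signals as measured it was 2 for TET1-CDwt. Leaving out 1 clone gave 4 to 10 for MBD-TET1-CDwt (10 without #10), 1 to 5 for TET1-CDwt, 1 to 3 for MBD-TET1-CDmut, and 7 to 13 between the fusions (13 without MBD-TET1-CDwt #10). Of the differences between constructs for the peptide probes, 98 of 120 moved by less than the SD between clones under the other alternatives. Leaving out 1 clone turned the sign of 19 of these 40 differences and of 0 of the 6 counted as 2-fold. The groups did not overlap in any of these 6, so leaving out 1 clone could not turn their sign. Nothing is read from that count. Those of MBD-TET1-CDwt minus empty vector that turned were TRH (0.97 to -0.44), probe c of CALCA (0.52 to -1.83), NPY (0.64 to -0.60), and GAL (0.15 to -0.47). The cause of these shifts was not tested.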
